A study of Caenorhabditis elegans with 2 samples.

Results

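In the pooled peak list of a ChIP-seq experiment on tagged SDZ-38, 175 of 1242 regions lay on the X chromosome of Caenorhabditis elegans outside protein-coding genes. A region was chosen when its summit fell outside every protein-coding gene of the RefSeq annotation of WBcel235 and more than 250 bp from every tRNA, snRNA, snoRNA, rRNA and miRNA gene, here called short RNA genes. X held 473 regions in all, of which 223 had their summit inside a protein-coding gene and 75 lay beside a short RNA gene, inside or outside other genes. The same rule gave 194 regions on the 5 autosomes, which held 748 regions together. Chromatin came from whole young adult hermaphrodites of strain OP543, 64 hours after they had been synchronized as starved L1 larvae, and the 2 samples are labelled as biological replicates and form 1 group. The line carries a stable transgene for SDZ-38 with GFP and FLAG at its C terminus, and the labels do not say whether the animals keep an untagged copy of the gene. The description names an anti-GFP antibody, while the antibody field reads sdz-38. No library from untagged animals is analysed here, so a region records anti-GFP enrichment in this strain and not a shown SDZ-38 site.

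sdz-38 is named for zygotic expression that depends on SKN-1, the transcription factor that specifies endoderm and mesoderm precursors in the embryo, and by RefSeq its protein has a domain of the C2H2 type, a kind of zinc finger that often binds DNA. The worm genome is compact, and the sequence between its genes holds promoters, enhancers and genes for non-coding RNA. In the somatic cells of hermaphrodites both X chromosomes are bound by the dosage compensation complex, which is loaded at recruitment elements on X and lowers the transcription of X genes.

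The sequences at the summits of the strongest regions are printed first, so that they can be read against each other. Each is the plus strand of WBcel235 (ce11) from RefSeq, 5′ to 3′, with 100 bases on either side of the summit. The first 3 are the strongest regions of the largest cluster, a group of 14 summits between the genes svh-5 and psa-3, and the fourth is the strongest region outside that cluster. No letter is marked by capitals.
chrX:15394668-15394868: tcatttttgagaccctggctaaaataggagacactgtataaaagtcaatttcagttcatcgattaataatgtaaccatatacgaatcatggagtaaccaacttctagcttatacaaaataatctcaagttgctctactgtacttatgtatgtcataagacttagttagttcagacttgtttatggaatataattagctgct
chrX:15395639-15395839: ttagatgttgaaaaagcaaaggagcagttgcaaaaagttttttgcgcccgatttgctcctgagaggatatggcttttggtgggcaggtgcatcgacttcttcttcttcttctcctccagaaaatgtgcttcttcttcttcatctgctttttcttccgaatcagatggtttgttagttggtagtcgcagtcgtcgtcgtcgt
chrX:15389882-15390082: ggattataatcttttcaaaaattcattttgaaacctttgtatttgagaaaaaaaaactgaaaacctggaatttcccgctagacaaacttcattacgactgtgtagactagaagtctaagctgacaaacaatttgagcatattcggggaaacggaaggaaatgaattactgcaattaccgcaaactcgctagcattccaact
chrX:6207800-6208000: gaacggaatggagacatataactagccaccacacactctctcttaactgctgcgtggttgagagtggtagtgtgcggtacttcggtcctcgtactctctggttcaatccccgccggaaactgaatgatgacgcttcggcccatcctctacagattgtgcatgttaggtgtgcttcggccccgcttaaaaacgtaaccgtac
The first held 31.8% G and C, the second 44.3%, the third 35.3% and the fourth 51.7%. Both of the following sequences belong to the largest cluster as well, and their capitals mark the longest word that any pair of its summits shared.
chrX:15388415-15388615: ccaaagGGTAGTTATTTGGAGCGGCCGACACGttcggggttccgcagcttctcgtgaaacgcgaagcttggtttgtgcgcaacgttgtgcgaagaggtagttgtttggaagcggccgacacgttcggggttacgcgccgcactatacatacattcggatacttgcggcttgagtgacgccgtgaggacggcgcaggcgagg
chrX:15392786-15392986: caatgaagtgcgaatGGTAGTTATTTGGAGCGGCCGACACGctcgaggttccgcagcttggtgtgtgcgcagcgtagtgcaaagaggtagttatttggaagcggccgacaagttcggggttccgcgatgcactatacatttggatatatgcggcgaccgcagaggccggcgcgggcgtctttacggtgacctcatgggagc
The word is 26 bases long, and the summits of the pair lie 4371 bp apart. It stands at 10 places in the genome, 7 of them on X, and pooled regions covered only the 2 places in the cluster. The last set shows every summit with the letters GCGCAGG within 100 bp on either strand, the core of the recruitment element of the dosage compensation complex. The core and 17 bases to either side are printed on the plus strand, with the core in capitals, so that a core on the minus strand reads CCTGCGC.
chrX:1345039-1345079: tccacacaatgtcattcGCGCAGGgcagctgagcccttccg
chrX:16682083-16682123: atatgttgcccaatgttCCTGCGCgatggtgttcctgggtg
chrX:11094109-11094149: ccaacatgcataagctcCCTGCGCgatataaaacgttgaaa
chrX:15388587-15388627: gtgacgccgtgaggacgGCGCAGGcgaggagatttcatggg
chrX:1837875-1837915: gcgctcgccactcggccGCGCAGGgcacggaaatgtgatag
chrX:11465336-11465376: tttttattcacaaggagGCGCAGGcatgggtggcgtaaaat
chrX:15956636-15956676: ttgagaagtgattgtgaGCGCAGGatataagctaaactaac
The nearest protein-coding genes of these 7 regions are, in the same order, ins-39, F22H10.2, W02H3.3, svh-5, T26C11.4, lin-14 and col-186. The fourth lies in the largest cluster and is also one of the pair above.

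Most of the regions were weak. Their signal values, the authors' score of each region on a scale that is not stated, ran from 39.1 to 116.6 with a median of 43.4. The median over all 1221 nuclear regions was 43.96, and that over the X regions beside short RNA genes was 52.3. Only 15 of the 175 regions reached 60. All 175 were 456 bp wide, and 4 pairs of neighbours overlapped each other. In each replicate 8 of the 175 shared their replicate region with such a neighbour, so their replicate values are not independent.

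The authors derived the optimal list with the irreproducible discovery rate (IDR) procedure from the pooled list and both replicate lists. It held 14 of the 175 regions (8.00%, exact 95% interval 4.44% to 13.1%). Of all nuclear regions 6.63% were in it, so the share lies near the background. On X the optimal list held 5 of the 223 regions inside genes (2.24%, 0.732% to 5.15%) and 15 of the 75 beside short RNA genes (20%, 11.6% to 30.8%). On the autosomes it held 9 of the 194 regions outside genes (4.64%, 2.14% to 8.62%). The interval of the 175 regions overlapped those of the other 3 groups.

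A region of each replicate overlapped 150 of the 175 regions (85.7%, 79.6% to 90.5%), against 88.5% of all nuclear regions. Of the others, 18 had a region in replicate 1 alone, 7 in replicate 2 alone and none lacked both. These replicate lists are long, with 17743 and 12648 regions, so most regions of any class overlapped them. Among the 1242 strongest regions of each replicate, as many as the pooled list holds, both replicates had 37 of the 175 (21.1%, 15.3% to 27.9%), against 18.8% of all nuclear regions. Neither share stood apart from its background.

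The ranks of the regions differed widely between replicates. Their median rank was 1048 in replicate 1 and 1014 in replicate 2, and the worst ranks were 17365 and 12285. Across the 150 regions found in both, their signal values had a Spearman's rho of -0.05, and across the 1081 nuclear regions found in both it was -0.07. Regions enter the pooled list by the signal of both replicates together, which bears on these values, so no order is read from them. The optimal list was made from both replicate lists and the pooled list, so its regions are not independent of these ranks. Its 14 regions were those of the 175 with the highest pooled signal values, 63.2 or more. They stood at rank 445 or better in replicate 1 and at rank 1840 or better in replicate 2, and 5 of them were among the first 100 of both.

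**Figure D1:**
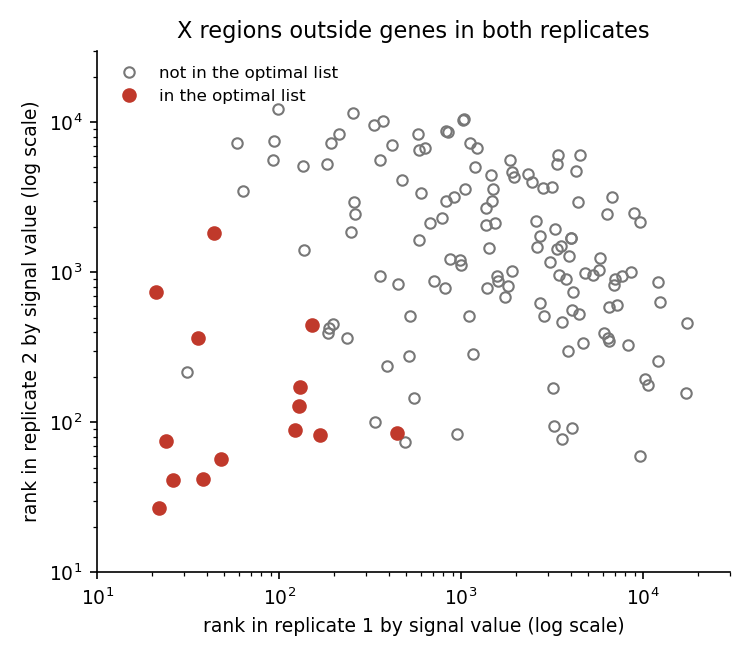
Rank of each of the 150 X regions outside genes that had a region in both replicates, in replicate 1 (x axis) and replicate 2 (y axis), both on log scales where rank 1 is the highest signal value; filled red points are the 14 regions of the optimal list. The optimal regions, which had the highest pooled signal values, lie at rank 445 or better in replicate 1 and at 1840 or better in replicate 2. The others reach ranks of 17365 and 12285.

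The 14 optimal regions included 5 of the largest cluster and 9 elsewhere on X. The strongest of the 9 had its summit at 6207900, 213 bp upstream of T13C5.6, which encodes a phosphatidic acid phosphatase type domain, and inside the non-coding RNA gene C14F11.14. Its signal value was 85.2 in the pooled list, 47.4 in replicate 1 and 42.4 in replicate 2, at ranks 38 and 42. It was the region outside the cluster with the best ranks in both replicates.

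Of the other 8, the region upstream of ins-39, which encodes an insulin-like peptide, stood 584 bp before the gene, with signal values of 68.9 in the pooled list, 35.6 in replicate 1 and 30.5 in replicate 2. The region upstream of dyla-1, an axonemal dynein light chain gene, stood 858 bp before it, with values of 69.2, 35.8 and 33.6 in the same order. A region 254 bp upstream of F57G12.1 lay 18 bp from the non-coding RNA gene F57G12.6, and its values were 69.9, 45.6 and 19.97. These 3 regions lay near a 5′ end, and the last one differed most between replicates, with ranks 44 and 1840.

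Of the other 5 optimal regions, 4 had the 3′ end of a gene nearest. One stood 418 bp past the 3′ end of nipi-3, which encodes a Tribbles-like pseudokinase of the innate immune response, with values of 73.1, 34.6 and 25.2. Another stood 436 bp past the 3′ end of osm-11, which encodes a secreted Notch ligand, with values of 67.1, 34.0 and 34.3. A region with values of 74.1, 44.7 and 38.4 lay 2710 bp from npr-24, a G protein-coupled receptor gene, and 356 bp from the non-coding RNA gene R106.8. The remaining pair lay 2225 bp from F22H10.2, with values of 64.8, 35.5 and 29.1, and inside the pseudogene C33E10.5, with values of 63.2, 28.8 and 33.9. The latter, on the 5′ side of its nearest gene, was the optimal region farthest from a protein-coding gene, 16864 bp from Y40C7B.4.

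The strongest region that was not in the optimal list had a signal value of 61.8, just below the 63.2 of the weakest optimal one. It lay in the largest cluster, at 15393756, with ranks 31 and 218 for the strongest overlapping region of each replicate. A weaker replicate 2 region with a nearer summit, at 15393752, had rank 11020. Next came regions 3426 bp from T08G2.2 (59.9), 2543 bp from lron-3 (58.6) and 828 bp from Y7A5A.9 (58.5). A region 375 bp upstream of fkh-9, a forkhead transcription factor gene, had a value of 57.2 but ranks of 93 and 5644.

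Outside genes, X carried regions at a higher density than any autosome. X held 22.0 regions per Mb of sequence that met the rule (95% Poisson interval 18.9 to 25.5), and the autosomes held 6.50 per Mb, a ratio of 3.39. By chromosome the densities were 6.56 per Mb on I, 8.11 on II, 8.35 on III, 4.53 on IV and 6.08 on V. The interval of X lay above that of every autosome. Of the 369 nuclear regions outside genes, 47.4% lay on X (exact 95% interval 42.2% to 52.7%), which holds 21.0% of the sequence that met the rule.

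Each replicate showed the same order with its own 1242 strongest regions. In replicate 1, 149 regions lay on X and 210 on autosomes (41.5% on X, 36.4% to 46.8%), and in replicate 2 the numbers were 149 and 227 (39.6%, 34.6% to 44.8%). In the full lists of the replicates the share was 32.6% and 32.4%. The excess was not particular to sequence outside genes, since regions inside protein-coding genes stood at 23.3 per Mb on X and 8.13 per Mb on autosomes, a ratio of 2.87, and the difference of these ratios was not tested.

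**Figure D2:**
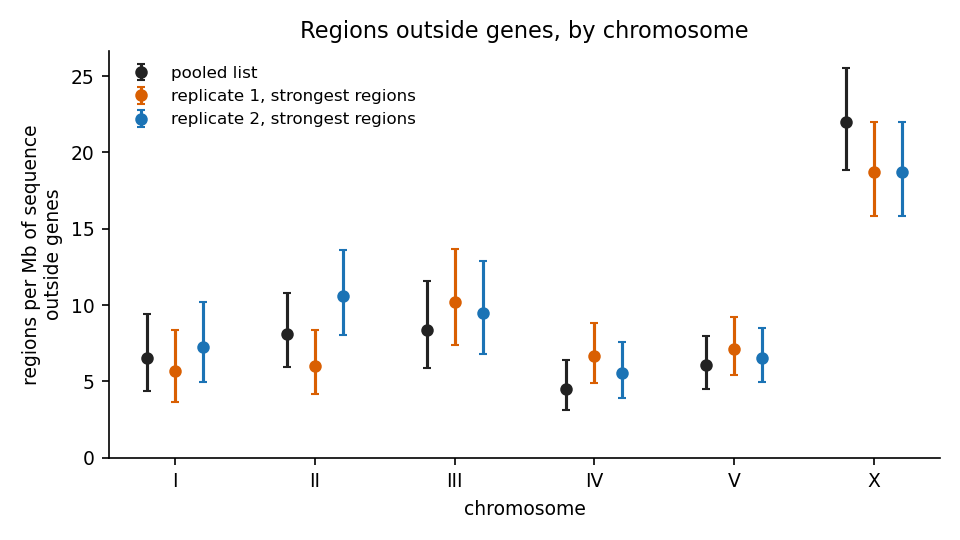
Regions outside genes per Mb of sequence that met the rule (y axis) on each chromosome (x axis), for the pooled list and for the 1242 strongest regions of each replicate; bars are 95% Poisson intervals of the counts. X stands at 22.0 per Mb in the pooled list and 18.7 per Mb in each replicate, above every autosome.

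Most of this density came from the right end of X. The last 2 of 10 equal parts of X held 108 of the 175 regions (61.7%, exact 95% interval 54.1% to 68.9%) on 21.8% of the sequence that met the rule. The same parts held 61.1% of the regions of replicate 1 and 63.1% of those of replicate 2. On the autosomes the last 2 parts held between 6.25% (IV) and 34.5% (I) of the regions. Of the 14 optimal regions, 11 lay there.

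Along X the densities from the left end were 7.79, 13.98, 9.56, 9.35, 4.99, 12.4, 17.6, 11.5, 48.7 and 73.9 regions per Mb. The first 8 values have overlapping intervals, and the interval of the ninth, 34.6 to 66.6, lay above all of them. In replicate 1 the last 2 values were 44.95 and 58.9 per Mb, and in replicate 2 they were 42.5 and 64.2. In both replicates the first 8 parts stayed at or below 16.3 per Mb.

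**Figure D3:**
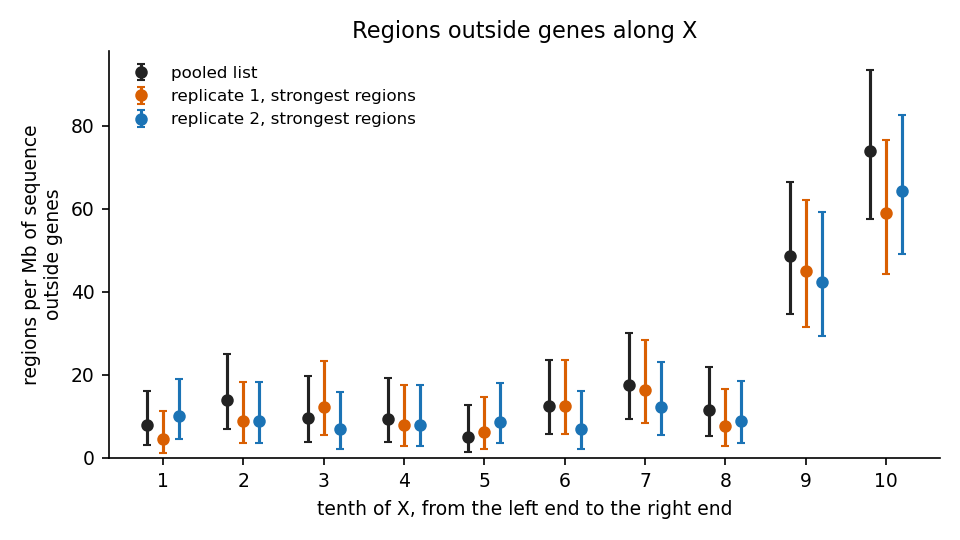
Regions outside genes per Mb of sequence that met the rule (y axis) in 10 equal parts of X from left to right (x axis), for the pooled list and the 1242 strongest regions of each replicate; bars are 95% Poisson intervals. In the pooled list the first 8 parts lie between 4.99 and 17.6 per Mb, and the last 2 at 48.7 and 73.9.

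X was divided at the largest cluster, which lies near the start of the rise and 2.31 Mb from the right end of X. That position was chosen after the counts along X had been seen. Before the cluster X held 77 regions outside genes on 6.74 Mb (11.4 per Mb), and after it 84 regions on 1.19 Mb (70.7 per Mb), a ratio of 6.19. With the 1242 strongest regions of replicate 1 the ratio was 5.84, and with those of replicate 2 it was 6.96. In the full lists it was 2.00 and 2.19.

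Regions inside protein-coding genes were also denser after the cluster, at 93.2 per Mb against 14.3 per Mb before it, a ratio of 6.53. For regions beside short RNA genes the ratio was 1.63 in the pooled list, 0.630 in replicate 1 and 1.78 in replicate 2. After the cluster it rests on only 17, 6 and 16 regions in the same order, on 0.031 Mb. In the full replicate lists the ratio was 0.977 and 1.28. The first of these groups thus differed between the sides as the regions outside genes did, and the second had no common direction in the replicates. The differences between these ratios were not tested.

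In windows of 250 kb with every kind of region counted, the values before and after the cluster did not overlap. The 61 full windows before it held 0 to 10 pooled regions with a median of 4, and the 8 full windows after it held 17 to 31 with a median of 21.5. In the full list of replicate 1 the ranges were 12 to 88 and 98 to 126, and in that of replicate 2 they were 8 to 58 and 74 to 101. The window that holds the cluster had 18 pooled regions, 14 of them the cluster itself, and the windows before and after it had 7 and 20. These windows thus do not place the start of the rise at the cluster. On the autosomes no window of 328 exceeded 10 pooled regions, 68 regions of replicate 1 or 46 regions of replicate 2. The step thus appears in each replicate list by itself and was not seen in autosomal windows of that size. Whether the number of DNA copies differs along X in this strain was not tested, as neither alignments nor the control library were read.

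**Figure D4:**
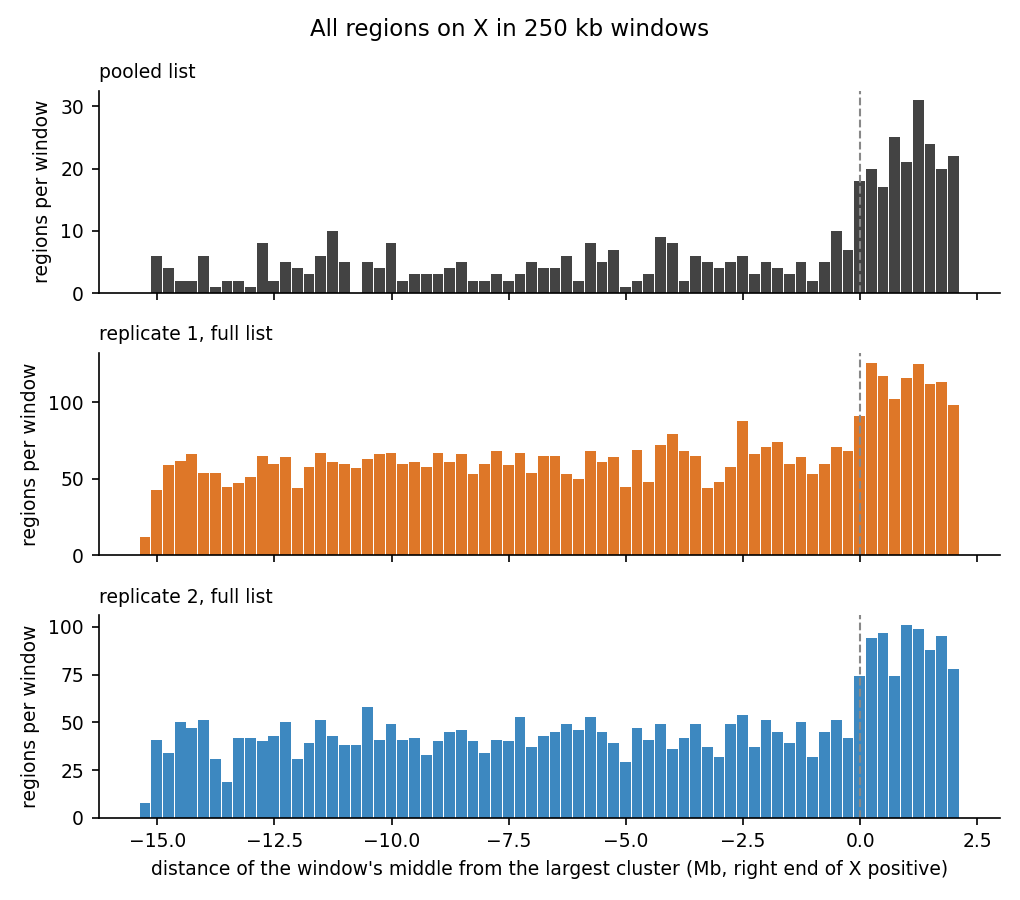
Number of regions of any kind (y axis) in each full window of 250 kb along X, at the distance of the window's middle from the first summit of the largest cluster (x axis, Mb, positive toward the right end), for the pooled list and the full replicate lists; the dashed line marks the cluster. Pooled windows hold at most 10 regions before the cluster and at least 17 after it.

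X before the cluster held pooled regions at a higher density than the 5 autosomes as a whole, and the strongest regions of each replicate were less clear. Its 11.4 regions per Mb (95% Poisson interval 9.01 to 14.3) were 1.76 times the autosomal 6.50, and it held 28.4% of the regions outside genes on 18.4% of the sequence. With the 1242 strongest regions of replicate 1 it held 9.94 per Mb (7.70 to 12.6) against 7.03 on the autosomes, and chromosome III alone held 10.2. With those of replicate 2 it held 9.20 per Mb (7.05 to 11.8), an interval that includes the autosomal 7.60, and chromosomes II (10.6) and III (9.51) held more. In each of these 3 lists the excess over the autosomes was smaller without the right end. In the full list of replicate 1, X before the cluster held 201 per Mb (190 to 212) against 128 on the autosomes. In that of replicate 2 it held 141 per Mb (132 to 150) against 93.3.

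Both sides also differed in what lay near the regions. Before the cluster 34 of 77 summits (44.2%, exact 95% interval 32.8% to 55.9%) fell within 1000 bp upstream of a protein-coding 5′ end, against 28.4% of the bases there that met the rule. After it 17 of 84 did (20.2%, 12.3% to 30.4%), against 19.5% of the bases. The share of the bases lay below the interval of the regions before the cluster and inside it after the cluster, and the difference between the sides was not tested. The median distance to a protein-coding gene was 852 bp before the cluster and 1599.5 bp after it, where the bases themselves had medians of 1291 and 1927.5 bp.

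Among the pooled regions, which all lie above the lowest signal value of that list, strength can be compared only in part. Before the cluster the median was 42.4 with a range of 39.3 to 85.2, and after it the median was 43.8 with a range of 39.1 to 74.1. The optimal list held 3 of the 77 regions before the cluster, 5 of its 14 and 6 of the 84 after it. The full replicate lists, which reach lower, held a larger part of strong regions after the cluster. In replicate 1, 67 of 1355 regions outside genes before the cluster and 69 of 477 after it were among the 1242 strongest, and in replicate 2 the numbers were 62 of 952 and 76 of 367.

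The largest cluster held more summits than any other group on X. With summits under 20 kb apart joined, it had 14 regions from 15386168 to 15405605, and 13 of them stood within 9571 bp at gaps of 211 to 1505 bp (median 871 bp). The last stood 9866 bp further on. Signal values ran from 39.1 to 116.6 with a median of 55.6, and the strongest region of the cluster was the fifth strongest of all nuclear regions. The cluster lay in a stretch of 30106 bp with no protein-coding gene, between the 5′ ends of svh-5, which encodes an Ets-domain protein, and psa-3, a transcriptional coregulator gene with a part in asymmetric cell division. The stretch carries 7 annotated non-coding genes.

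The strongest summit, at 15394768, had signal values of 116.6 in the pooled list, 69.2 in replicate 1 and 55.2 in replicate 2, at ranks 22 and 27. Its neighbour 971 bp to the right, at 15395739, had values of 94.6, 60.2 and 42.7, at ranks 26 and 41. Both lay 12192 bp or more from psa-3 and were high in both replicates. The summit at 15389982 had values of 88.8, 71.2 and 23.2, and ranks of 21 and 743. The summit at 15392886 had values of 88.3, 61.6 and 34.8, and that at 15391869 had 72.2, 48.8 and 25.9. In replicate 2 a weaker region had its summit nearer to 15389982, with a value of 19.0 and rank 2460. Another had its summit nearer to 15392886, with a value of 23.5 and rank 677. The 5 summits named here were the optimal regions of the cluster, and each had a better rank in replicate 1 than in replicate 2.

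The other 9 summits were weaker and less even. At 15388515 the pooled value was 53.2, with rank 63 in replicate 1 and 3504 in replicate 2. At 15391097 replicate 1 had no region, and replicate 2 had one at rank 386. The summit at 15405605, which stands apart, had rank 7157 in replicate 1 and 608 in replicate 2. Within the span replicate 1 had 13 regions, 8 of them among its first 100, and replicate 2 had 16, 4 of them among its first 100. The cluster was present in both replicates and higher in the ranks of replicate 1.

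**Figure D5:**
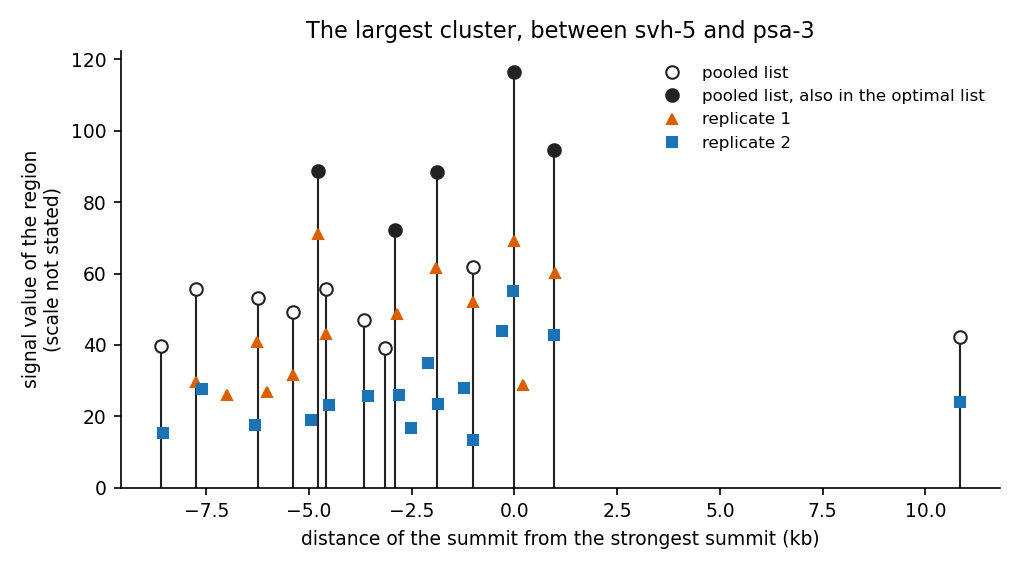
Signal value of each region of the largest cluster (y axis, scale not stated) against the distance of its summit from the strongest summit (x axis, kb, positive toward psa-3), for the pooled list (circles, filled for the 5 optimal regions), replicate 1 (triangles) and replicate 2 (squares). In both replicates the region at or within 1 kb of the strongest summit stands among the highest of the cluster, and the last summit lies 10.8 kb to the right.

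Other long gene-free stretches of X held fewer regions. The stretch between svh-5 and psa-3 was the seventh longest of 2390 stretches of X without a protein-coding gene, the chromosome ends included. Of the 6 longer ones, 4 held no region and none held more than 3. The 4 without a region all lay left of the cluster, where regions were sparser, and those with regions lay right of it. Length apart from place along X was not tested. Over all stretches, 134 held at least 1 region, and 24 held 2 or more. No other stretch held more than 3.

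Clusters were common at the right end, where regions were also denser. Summits were joined at a fixed distance, so a higher density by itself joins more of them. Whether clustering at the right end went beyond what its density gives was not tested. Of the 175 regions, 110 (62.9%) stood in 34 clusters of 2 or more summits, and 65 stood alone. The 8 clusters of 4 or more held 48 regions, and all 8 lay in the last 2 of the 10 parts of X. After the largest, the next in size were 6 regions near F22H10.2, F22H10.6 and F22H10.1 (16679932 to 16704497, signal values 39.1 to 64.8), the second of which encodes an HSF-domain protein. A further 6 lay near nlp-6, a neuropeptide gene, and cgt-2, a ceramide glucosyltransferase gene (17667443 to 17709196, 40.1 to 51.03). One of 2 groups of 5 lay near mrp-3, an ABC transporter gene, mec-5, a collagen gene needed for touch sensation, and col-186, a cuticle collagen gene (15940114 to 15966892, 39.99 to 44.8). The other lay near Y13C8A.1, F39F10.2, F39F10.5, C30E1.4 and F52G3.8 (16884939 to 16945735, 40.2 to 48.4). None of these groups had a summit above 65, and the F22H10.2 group alone had an optimal region. The remaining 3 clusters had 4 regions each. They lay near csb-1, whose product acts in DNA repair, and serp-1.1 (15823860 to 15861066, 44.0 to 58.5), near npr-21, B0302.2 and T08G2.2 (17164894 to 17201733, 40.5 to 59.9), and near crb-1, osm-11 and pbo-6 (17415720 to 17427883, 39.1 to 67.1), the last with the optimal region past osm-11.

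Over the whole of X, the 175 regions had shares near genes that lay close to those of the sequence, with the contrast between the sides of the cluster given above. Within 1000 bp upstream of a 5′ end were 51 summits (29.1%, exact 95% interval 22.5% to 36.5%), against 26.99% of the bases that met the rule. Between a pair of 5′ ends were 36.6% against 36.9%, between a 5′ and a 3′ end 50.3% against 53.6%, and between a pair of 3′ ends 13.1% against 8.94%. Each of these 4 shares of bases lay within the interval of the regions, as the last interval ran from 8.52% to 19.1%. More than 5 kb from any protein-coding gene were 30 summits (17.1%, 11.9% to 23.6%), against 11.5% of the bases, which lies below the interval. The largest cluster gave 13 of those 30 summits.

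Genes for other non-coding RNAs lay closer to the regions than to the sequence at large. Within 250 bp of a gene annotated as ncRNA were 33 summits (18.9%, 13.4% to 25.5%), against 9.09% of the bases, and 9 summits were inside one (5.14%, 2.38% to 9.54%), against 2.83%. The rule did not use this class of gene. Pseudogenes held 6 summits (3.43% against 4.21% of the bases). No summit lay within 250 bp of a piRNA gene or of a long non-coding RNA gene, where 0 of 175 has an exact upper limit of 2.09% and the bases stood at 0.487% and 0.750%.

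By nearest protein-coding gene the fixed gene lists held few regions. Nuclear hormone receptors, ligand-regulated transcription factors, were nearest to 7 regions (4.0% against 1.69% of the bases) at 5 genes, fax-1, nhr-1 and nhr-40 among them. Of these 7, 3 formed a cluster near nhr-1. Collagens were nearest to 5 regions (2.86% against 0.817%) at 4 genes, among them mec-5 and let-2, the latter a basement membrane collagen. All 5 lay after the largest cluster, where regions were denser. The shares of bases refer to the whole of X, so they do not take the rise at the right end into account. Homeobox genes had 5 regions, all of them at psa-3 in the largest cluster. Neuropeptide genes had 3 (nlp-6, flp-8 and nlp-67), insulin-like genes 1 (ins-39), and mir-34 and mir-4810.1 were the only miRNA genes within 2000 bp of a summit. No region was nearest to a gene of the dosage compensation complex (2 genes on X), the SKN-1 endomesoderm list (2 genes on X) or the sdz list (1 gene on X). With so few genes on X, a count of 0 says little.

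The summits were richer in G and C than the sequence around them. Within 50 bp of the summit the 175 regions held 40.9% G and C ± 9.92 (SD, n = 175), against 35.6% ± 8.76 (SD, n = 350) in windows centred 300 bp to either side and 33.8% ± 8.12 (SD, n = 15921) in windows of X that met the rule. Of the 175 summits, 114 were above the mean of their own flanks. The autosomal regions outside genes held 40.9% ± 8.49 (SD, n = 194), so the level was not that of X in particular. The spread between regions was as wide as these differences. On the 2 sides of the largest cluster the means were 42.7% ± 10.3 (SD, n = 77) before and 39.3% ± 9.68 (SD, n = 84) after.

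Repeated sequence was less frequent at the summits than in the windows of X that met the rule. How the alignments treated reads from repeated sequence is not known, and that bears on which regions could be called. In 164 regions (93.7%) more than 90% of the words of 31 bases occurred once in the genome, against 84.6% of the windows, and no region fell below 65.3%. Of the windows, 1231 were below 50%. Repeats that RefSeq marks made up 24.1% of the sequence within 100 bp of the summits, 33.1% in the largest cluster and 35.6% in the windows.

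The core of the X recruitment element, GCGCAGG on either strand within 100 bp, stood at 7 of the 175 summits (4.0%, exact 95% interval 1.62% to 8.07%). It stood in 62 of 15921 windows of X (0.389%), at 6 of 223 X summits inside genes (2.69%) and at 0 of 194 autosomal summits outside genes, which has an exact upper limit of 1.88%. Among sequences with at least 40.3% G and C within 100 bp, the median of the regions, it stood at 6 of 89 regions (6.74%), 0 of 92 autosomal ones and 1.11% of the windows of X. The letters are not shown to be sites of the complex, and 7 regions are few. Of the 7, those near ins-39 and F22H10.2 are optimal regions, with signal values of 68.9 and 64.8. The one 141 bp upstream of lin-14, which encodes a nuclear protein that times larval development, had a value of 44.1 and ranks of 450 and 836.

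The other words had shares on both sides of their background. The B box of tRNA genes, GTTCGANNC, stood at 1 of the 175 summits (0.571%), against 1.06% of the windows, 39 of the 75 X regions beside short RNA genes (52.0%) and 72.5% of the 276 tRNA genes of X. The rule that kept the regions away from tRNA genes bears on this count. Only these exact letters were searched, and part of the tRNA genes lack them, so other forms of the B box were not counted. The sequence printed for the summit at 6207900 holds gttcaatcc, which differs from these letters at 1 position. GAGAGAGA stood at 7 summits (4.0% against 1.33%), as many as the recruitment core. The GATA word TGATAA stood at fewer summits than windows, 22 (12.6% against 19.3%), and the E box CACGTG at 4 (2.29% against 2.37%). The other 3 words, which had been picked from an earlier look at the same data, stood at 5.14% (GCGCCA, 3.16% of the windows), 6.86% (CCACTC, 4.97%) and 5.71% (AGTGGC, 4.53%). All were searched on both strands within 100 bp, and the windows were not matched for composition except where stated.

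For a typical pair of summits in the largest cluster, the longest exact word in common was short. The longest word in common had a median of 8 bases over 91 pairs of summits of the cluster, and also 8 bases over 1769 pairs of the 60 strongest other regions, where the longest was 15. Only exact words within 100 bp of the summits were compared, and near copies with differing letters were not searched.

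Moving the limit of 250 bp to short RNA genes changed few regions, with 180 at 100 bp and 173 at 500 bp in place of 175. The nearest to the limit of 250 bp were a region 305 bp from the tRNA gene C06G1.t3 with a signal value of 48.6, one 369 bp from the snoRNA gene W01H2.11 with 51.1 and one 688 bp from the snRNA gene F35B3.10 with 45.3. Just beyond the limit on the other side were regions 176 bp from K05G3.t1, 163 bp from F38G1.t1 and 142 bp from F52E10.t5, all tRNA genes, with 45.0, 51.3 and 39.6. In all, 44 regions of X outside protein-coding genes were left out for lying within 250 bp of such a gene, and 7 of the 175 lay within 1000 bp of one.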

How the data were processed

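The files are lists of regions in narrowPeak layout for builds ce10 and ce11, from chromatin immunoprecipitation of 2 biological replicates. Per the file notes deposited with the samples, each replicate list of peaks and background was made from that replicate's alignment and 1 control alignment, the pooled list from both replicates and the control, and the optimal list from these 3 lists by IDR. The deposited signal value of each region is the authors' score, whose scale is not stated. Neither an aligner nor a peak caller is named in the sources used here. Only region lists were read, without tracks, alignments or the control itself, and the depth of each library is therefore unknown. The column that the layout assigns to q was not used.

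The members and lists were chosen with earlier results of these data known. The rule was applied to the ce11 lists with the RefSeq annotation of WBcel235, whose chromosome lengths hold every region. The ce10 lists gave only the numbers of X regions. Positions are 1-based. Regions were ranked by signal value. A region was counted in a replicate with an overlap of at least 1 bp, and in the optimal list with the same coordinates. Its replicate signal value and rank are those of the strongest replicate region that overlapped it, even where a weaker one had a nearer summit. Neighbouring summits under 20 kb apart were joined to clusters. The sequence that met the rule was read at every 100th base, and in windows at every 500th base for composition and words. Densities refer to its full length. Intervals are exact (Clopper-Pearson for shares, Poisson for densities, both 95%) and cover counting error only. With 1 group there is no contrast, regions of the same libraries are not replicates, and no p-value was computed. The labels do not say whether the replicates came from separate cultures beyond calling them biological.

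The regions named are all optimal ones, the 15 strongest, those of the largest cluster and those next to the 250 bp limit. Regions near T08G2.2, lron-3, Y7A5A.9 and fkh-9, those with the recruitment core and the clusters of 4 or more were named after their values were seen. Computations used Python 3.11.15, NumPy 2.4.6, pandas 2.3.3, SciPy 1.17.1 and Matplotlib, and the rule, cluster and overlap functions were tested on simulated data. The alternatives were other distances, gene definitions, linkage distances, overlaps, windows, the 50% of the nuclear regions with the higher signal values and each replicate's own strongest regions.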

Additional observations from a re-analysis of the deposited data

How the results depend on the processing

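Over 11 results, 57 alternatives were computed, and 32 stayed within 1.5 times the main count or within the interval or spread of the main value. With the stronger 50% of the pooled regions there were 82 regions in place of 175, at 10.3 per Mb in place of 22.0, with 17.1% in the optimal list and 39.0% in clusters. Leaving out 1 replicate, that is using the 1242 strongest regions of the other, gave 149 regions in both cases at 18.7 per Mb. On X lay 39.6% to 41.5% of the regions outside genes. Of the 149, 10.7% to 12.1% overlapped an optimal region by at least 1 bp, a looser count than the same coordinates used elsewhere. The share on X was 61.1% without promoters of 1000 bp, 58.4% where the whole region had to lie outside genes and 35.2% with each cluster counted once (12.5 clusters or single regions per Mb). X before the largest cluster alone, an alternative chosen after seeing the data, gave a share of 28.4%, 11.4 regions per Mb, 3.90% in the optimal list and 33.8% in clusters. The share in both replicates was 64.6% with summits within 100 bp and 21.1% among the 1242 strongest regions of each. The share in clusters was 33.1% with 5 kb, 45.7% with 10 kb and 77.7% with 50 kb, and 35.7% among the optimal regions. Upstream of 5′ ends lay 17.1% within 500 bp and 42.3% within 2000 bp. The recruitment core stood within 50 bp at 1.14% of the summits. The ce10 lists held 471 X regions in the pooled list and 30 in the optimal list, against 473 and 34. No paired analysis was possible because the series has 1 group and no contrast. Depth is unknown, and no interval here covers the spread between replicates.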
